A study of Mus musculus with 6 samples.

Results

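The D, J and C genes of the T cell receptor β locus (TRB) were examined in P2 tetramer-binding CD4+ T cells. The genes were TRBD1 and TRBD2, the 6 genes TRBJ1-1 to TRBJ1-6, the 6 genes TRBJ2-1 to TRBJ2-5 and TRBJ2-7, and the constant genes TRBC1 and TRBC2. They were taken as the functional D, J and C genes of the locus. Of these 16, 15 occurred in a productive TRB contig, among 190 V, D, J and C genes named in the deposited contigs of all receptor chains. Productive means that the assembled receptor transcript keeps an open reading frame from V to J. In all, 1119 of 3124 contigs were productive TRB contigs, in 1057 cells.

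The cells were sorted from lymph nodes of Aire GW/+ Lyn-/- mice at 9 wk of age with a tetramer of I-Ab and P2, a peptide of the retinal protein IRBP. Mice of this genotype carry 1 copy of a dominant negative form of Aire, the thymic regulator of self antigens, and lack the kinase Lyn, and some of them develop uveitis without immunization. There were 3 TCR libraries: uveitis dataset 1 and uveitis dataset 2, pooled from 7 and 8 mice without a record here of which pool is which, and 1 library pooled from 16 mice without uveitis. All groups share the genotype, so no library comes from wild-type mice, and each pool counts as 1 sample. Shares therefore carry exact 95% binomial intervals, which cover counting error only, and the conditions were not tested against each other.

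Every mouse β chain is joined from 1 V, 1 D and 1 J segment and then spliced to a constant gene. The locus repeats a block of D, J and C: TRBD1, the TRBJ1 cluster and TRBC1 are followed by TRBD2, the TRBJ2 cluster and TRBC2. Joining deletes the DNA in between, so TRBD1 can join either J cluster, whereas TRBD2 lies downstream of the whole TRBJ1 cluster. The segment ends are trimmed and bases without a template are added, and the joint encodes CDR3, the loop of the β chain that faces peptide. In the GENCODE M21 annotation of GRCm38, all of these genes lie on the + strand of chromosome 6, with 6557 bases from the end of TRBJ1-6 to the start of TRBD2. That annotation also lists TRBJ1-7, a J gene downstream of TRBJ1-6, and the pseudogene TRBJ2-6, neither of which was examined.

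The germline D genes are shown because the choice between them rests on few bases. TRBD1 has 12 bases and TRBD2 has 14. They share their first 5 and last 6 bases, and the capital marks the first base at which they part. The uninterrupted run of G is 5 bases long in TRBD1 and 7 in TRBD2.
TRBD1, chr6:41533201-41533212: gggacAgggggc
TRBD2, chr6:41542163-41542176: gggacTgggggggc

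The germline J genes follow in locus order. Capitals mark the bases that can enter CDR3, up to and including the conserved phenylalanine codon, here called the J head. Its length runs from 19 bases in TRBJ2-7 to 25 in TRBJ1-6, with a mean over the genes of 22 in the TRBJ1 cluster and 21.2 in the TRBJ2 cluster.
TRBJ1-1, chr6:41533864-41533911: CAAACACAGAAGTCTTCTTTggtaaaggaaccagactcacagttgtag
TRBJ1-2, chr6:41534001-41534048: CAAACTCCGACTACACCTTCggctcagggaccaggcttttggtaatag
TRBJ1-3, chr6:41534323-41534372: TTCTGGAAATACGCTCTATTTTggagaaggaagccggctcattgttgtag
TRBJ1-4, chr6:41534811-41534861: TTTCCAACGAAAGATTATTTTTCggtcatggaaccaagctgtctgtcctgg
TRBJ1-5, chr6:41535084-41535133: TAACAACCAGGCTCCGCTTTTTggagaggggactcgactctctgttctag
TRBJ1-6, chr6:41535554-41535606: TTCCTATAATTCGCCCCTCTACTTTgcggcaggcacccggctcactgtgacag
TRBJ2-1, chr6:41542754-41542803: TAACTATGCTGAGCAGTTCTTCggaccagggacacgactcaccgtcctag
TRBJ2-2, chr6:41542957-41543007: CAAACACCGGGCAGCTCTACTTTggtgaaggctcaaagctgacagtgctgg
TRBJ2-3, chr6:41543223-41543271: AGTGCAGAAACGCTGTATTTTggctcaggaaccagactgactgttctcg
TRBJ2-4, chr6:41543362-41543410: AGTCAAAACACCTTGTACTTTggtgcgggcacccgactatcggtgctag
TRBJ2-5, chr6:41543453-41543501: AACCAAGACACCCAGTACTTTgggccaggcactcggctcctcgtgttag
TRBJ2-7, chr6:41543810-41543856: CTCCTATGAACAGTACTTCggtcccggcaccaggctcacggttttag

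Dataset 1 held 212 productive TRB contigs, dataset 2 held 391 and the library without uveitis 516, resting on 2800, 5181 and 10544 UMIs (unique molecule counts). Cells with such a contig numbered 201, 359 and 497, of which 176, 324 and 470 also had a productive TRA contig, as expressed by αβ T cells. Dataset 1 also held 6 contigs of γδ receptor genes and 11 of immunoglobulin genes, none productive, and the other libraries held none. No barcode was shared between libraries except 1 between dataset 2 and the library without uveitis, with no TRB sequence in common. The cells carried 117, 135 and 412 distinct CDR3 nucleotide sequences, taken from the TRB contig with the most UMIs in each cell. A distinct sequence stands for at least 1 recombination event however far its clone expanded, so shares were given over distinct sequences unless cells are named.

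The TRBJ2 cluster supplied most β chains in every library. Of the distinct sequences of dataset 1, 76.1% (89 of 117) used a TRBJ2 gene, with an interval of 67.3 to 83.5%. The share was 71.1% (96 of 135) in dataset 2, with an interval of 62.7 to 78.6%. Without uveitis it was 63.8% (263 of 412), with an interval of 59.0 to 68.5%. Both uveitis libraries lay above the third, with a mean of 73.6 ± 3.51% (SD, n = 2), but the intervals of both overlapped that of the library without uveitis. By clonotypes of both chains the shares were 76.8% (interval 68.9 to 83.6%), 74.6% (66.7 to 81.6%) and 64.5% (59.6 to 69.1%). With the uveitis libraries combined, the interval was 67.5 to 78.8% over distinct sequences and 70.3 to 80.6% over clonotypes. Only the clonotype interval lay above that of the library without uveitis.

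Counted by cells, the TRBJ2 share set the uveitis libraries further apart from each other. It was 81.1% (163 of 201) in dataset 1 and 63.8% (229 of 359) in dataset 2, 17.3 percentage points apart against 4.96 points over distinct sequences. Without uveitis it was 62.6% (311 of 497). The largest clone of dataset 2, of 46 cells, used TRBJ1-3, and without that clone the share of cells in dataset 2 was 73.2% (229 of 313). Leaving out the largest clone of the other libraries gave 79.5% in dataset 1 and 65.2% without uveitis. Over cells, dataset 2 thus sat beside the library without uveitis, and over distinct sequences between the others.

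TRBJ2-7 was the most used J gene in each library, whether cells, clonotypes or distinct sequences were counted. Some leads were narrow. In dataset 2 it had 77 cells against 76 of TRBJ1-3, and in dataset 1 it had 33 clonotypes against 30 of TRBJ2-5. TRBJ2-7 made up 22.2% of distinct sequences in dataset 1, 20.7% in dataset 2 and 18.4% in the third library. The next places went to genes of the same cluster. TRBJ2-5 had 18.8%, 12.6% and 14.8%, and TRBJ2-1 had 15.4%, 16.3% and 10.4%. The intervals of these 3 genes overlapped in the uveitis libraries. Without uveitis the interval of TRBJ2-7 (14.8 to 22.5%) lay above that of TRBJ2-1 (7.66 to 13.8%) and overlapped that of TRBJ2-5.

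The remaining TRBJ2 genes were used at about the level of the TRBJ1 genes. TRBJ2-2 had 5.98%, 9.63% and 5.10% in dataset 1, dataset 2 and the library without uveitis. The shares of TRBJ2-3 were 7.69%, 6.67% and 6.07%, and those of TRBJ2-4 were 5.98%, 5.19% and 8.98%. In the TRBJ1 cluster, TRBJ1-1, the gene nearest to TRBD1, led in dataset 2 and without uveitis with 10.4% and 9.47%, and had 5.98% in dataset 1. TRBJ1-4 followed without uveitis with 8.74%, against 3.42% and 5.93% in the uveitis libraries. TRBJ1-2 had 3.42%, 4.44% and 6.07%, and TRBJ1-3 had 5.98%, 5.93% and 5.34%.

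TRBJ1-5 and TRBJ1-6, the most downstream of the TRBJ1 genes examined, were rare among distinct sequences. TRBJ1-5 gave 3, 3 and 13 distinct sequences, which is 2.56%, 2.22% and 3.16%. TRBJ1-6 gave 3 in dataset 1, none in dataset 2 and 14 without uveitis. Over distinct sequences the count of 0 of 135 in dataset 2 has an exact interval of up to 2.70%, against a share of 3.40% (14 of 412) without uveitis. By cells it was 0 of 359, where 3 cells would be 0.836%. The same gene was in 38 of 497 cells (7.65%) without uveitis, 20 of them from 1 clone. Cells of a clone are not independent draws, so the cell shares overstate the contrast. Of the 12 J genes, 5 were higher in both uveitis libraries than without uveitis and 5 were lower in both, and for each of the 12 the intervals of both uveitis libraries overlapped that of the library without uveitis.

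**Figure D1:**
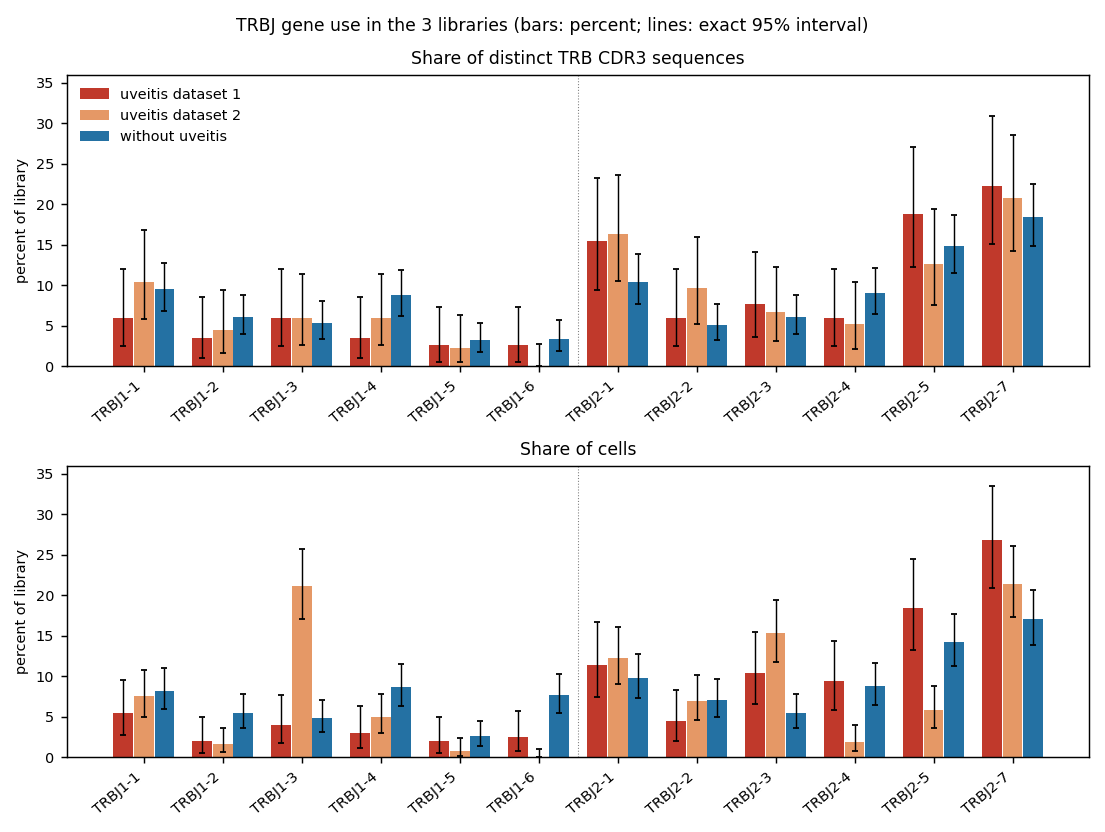
Share of each TRBJ gene in percent of the library (bars, with exact 95% binomial intervals as lines) over distinct CDR3 sequences in the upper panel and over cells in the lower panel, for uveitis dataset 1, uveitis dataset 2 and the library without uveitis; the dotted line parts the TRBJ1 from the TRBJ2 cluster. TRBJ2-7 is the highest bar of each library in both panels. TRBJ1-3 in dataset 2 rises from 5.93% of distinct sequences to 21.2% of cells, just below TRBJ2-7 at 21.4%.

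Single clones moved the J genes that differed most between cells and distinct sequences. TRBJ1-3 was in 76 cells of dataset 2 (21.2%) but in 8 distinct sequences, of which the largest held 46 cells (60.5%) and the next 19. The same gene was in 8 cells with 7 sequences in dataset 1 and in 24 cells with 22 sequences without uveitis. TRBJ2-3 was in 55 cells of dataset 2, 37 from 1 sequence, and in 21 cells of dataset 1, 13 from 1 sequence. In dataset 1, 11 of the 19 TRBJ2-4 cells and 16 of the 54 TRBJ2-7 cells came from 1 sequence each. Among the J genes of the library without uveitis, TRBJ1-6 alone had over 25% of its cells in 1 sequence, with 52.6% (20 of 38).

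**Figure D2:**
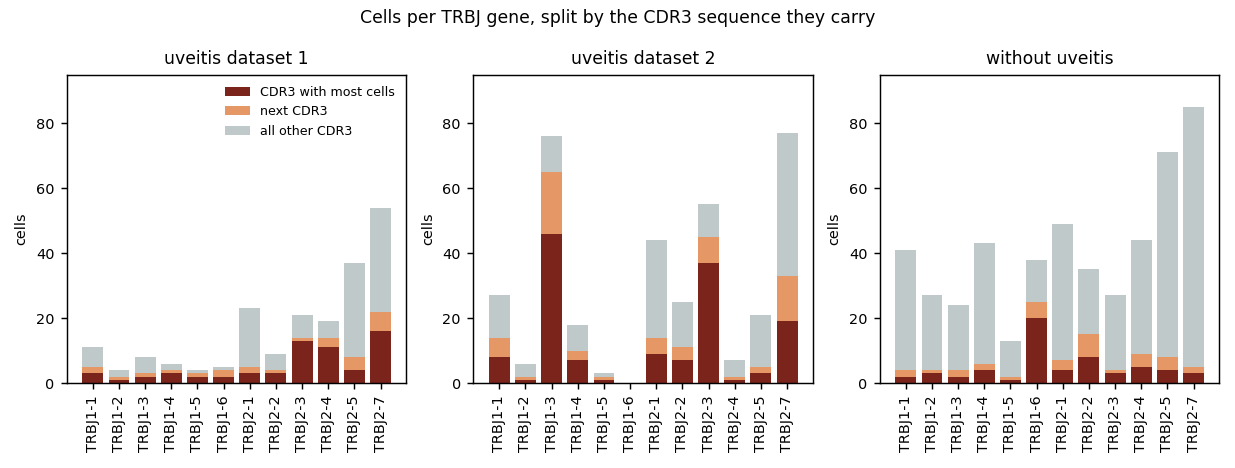
Cells per TRBJ gene in each library (y axis, number of cells), split into the CDR3 sequence with the most cells (dark), the next one (orange) and all others (grey). In dataset 2 the TRBJ1-3 bar of 76 cells has 46 in its largest sequence and 19 in the next, whereas the TRBJ2-7 bar of the library without uveitis, 85 cells, has 3 in its largest sequence.

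The most frequent CDR3 of each cluster in each library shows how these joints are built. Each is written with the longest match to its assigned D gene in capitals, and those without capitals had no D gene assigned. The TRBJ1 sequence of dataset 1 was tied at 3 cells with a TRBJ1-4 sequence and was taken by alphabetical order.
dataset 1, TRBV3, TRBD1, TRBJ1-1, 3 cells: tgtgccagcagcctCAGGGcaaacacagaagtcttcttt
dataset 1, TRBV3, TRBD2, TRBJ2-7, 16 cells: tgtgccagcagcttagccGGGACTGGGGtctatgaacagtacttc
dataset 2, TRBV31, no D gene, TRBJ1-3, 46 cells: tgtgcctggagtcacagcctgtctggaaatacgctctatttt
dataset 2, TRBV12-2, TRBD2, TRBJ2-3, 37 cells: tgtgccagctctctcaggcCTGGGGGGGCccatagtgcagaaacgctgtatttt
without uveitis, TRBV31, no D gene, TRBJ1-6, 20 cells: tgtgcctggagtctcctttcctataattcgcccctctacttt
without uveitis, TRBV3, TRBD1, TRBJ2-2, 8 cells: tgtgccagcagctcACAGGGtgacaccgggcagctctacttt

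These sequences differ in how much lies between the germline V and J bases. In the TRBJ2-3 clone of dataset 2, CDR3 was 54 bases long, all 21 bases of the J head were kept and 18 bases lay between V and J. In the TRBJ1-6 clone of the library without uveitis, all 25 bases of the J head were kept and 2 bases lay between V and J. The leading TRBJ1 clones of dataset 2 and of the library without uveitis both used TRBV31, a V gene that lies downstream of TRBC2 in the opposite orientation and joins by inversion. Over all libraries TRBV31 was used with a TRBJ2 gene in 63.2% (24 of 38) of its distinct sequences, with an interval of 46.0 to 78.2%, against 67.7% (424 of 626) for the other V genes. Among the V genes with at least 10 distinct sequences, the TRBJ2 share ran from 48.9% (23 of 47) for TRBV2 to 81.8% (9 of 11) for TRBV23.

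None of the 412 distinct CDR3 nucleotide sequences of the library without uveitis was among the 117 of dataset 1 or the 135 of dataset 2. Only the TRB contig with the most UMIs of each cell was compared. The uveitis libraries shared 1, which used TRBV5 and TRBJ2-5 with no D gene assigned and was in 4 cells of dataset 1 and 2 cells of dataset 2.
dataset 1 and dataset 2, TRBV5, TRBJ2-5: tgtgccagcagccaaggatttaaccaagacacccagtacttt

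The D gene followed the order of the locus. TRBJ1 rearrangements carried TRBD1 in 57.1% (16 of 28) of distinct sequences of dataset 1, 59.0% (23 of 39) of dataset 2 and 66.4% (99 of 149) without uveitis, and TRBD2 in 1, 5 and 6 sequences. TRBJ2 rearrangements carried both D genes. TRBD2 was in 49.4% (44 of 89), 45.8% (44 of 96) and 49.4% (130 of 263) of them, and TRBD1 in 27.0% (24 of 89), 29.2% (28 of 96) and 28.9% (76 of 263). Cell Ranger left the others without a D gene, 39.3%, 28.2% and 29.5% of TRBJ1 sequences and 23.6%, 25% and 21.7% of TRBJ2 sequences. Where a CDR3 sequence recurred in several cells of a library, which held for 106 sequences, the D and J genes were the same in all of its cells. These genes are called from the sequence itself, so this was nearly fixed in advance and does not measure how reliable the calls are.

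The TRBD1 shares on the TRBJ2 cluster lay inside each other's intervals in all 3 libraries. Of the TRBJ2 sequences with a D gene, TRBD1 had 35.3% (24 of 68) in dataset 1, with an interval of 24.1 to 47.8%. It had 38.9% (28 of 72) in dataset 2, with an interval of 27.6 to 51.1%. Without uveitis the share was 36.9% (76 of 206), with an interval of 30.3 to 43.9%. Counted by cells the shares were 35.8%, 32.6% and 35.1%.

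Within the TRBJ2 cluster the share of TRBD2 differed from gene to gene. Over the 3 libraries it was 74.5% of the D-assigned sequences with TRBJ2-7 (82 of 110), 73.3% with TRBJ2-3 (22 of 30), 63.2% with TRBJ2-4 (24 of 38) and 61.2% with TRBJ2-5 (41 of 67). TRBJ2-1, the gene nearest to TRBD2, had 54.2% (39 of 72), and TRBJ2-2 had 34.5% (10 of 29). TRBJ2-7 had 82.6%, 78.3% and 70.3% in the single libraries. TRBJ2-1 ranged from 12 of 15 in dataset 1 to 47.4% in each of the other libraries, and TRBJ2-5 from 4 of 10 in dataset 2 to 71.4% (30 of 42) without uveitis, so the order of the genes was not the same in each library. Without uveitis TRBJ2-3 (12 of 16) and TRBJ2-5 lay above TRBJ2-7. Each TRBJ1 gene had between 2.63% (TRBJ1-1, 1 of 38) and 13.5% (TRBJ1-4, 5 of 37).

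**Figure D3:**
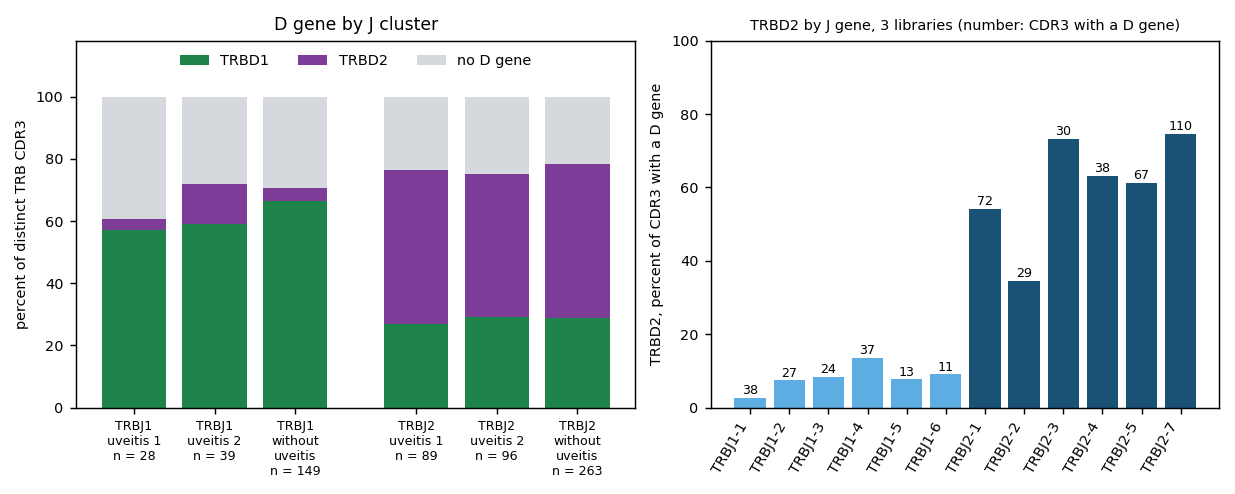
Left, D gene of the distinct TRB CDR3 sequences by J cluster and library, as percent of the n sequences under each bar, stacked as TRBD1, TRBD2 and no D gene. Right, TRBD2 as percent of the sequences with a D gene for each TRBJ gene over the 3 libraries, with the number of such sequences above each bar; the TRBJ1 genes reach 13.5% and the TRBJ2 genes run from 34.5 to 74.5%.

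The exceptions to the locus order were 12 distinct sequences with TRBD2 and a TRBJ1 gene, 5.56% of the 216 TRBJ1 sequences, found in 45 cells. They made up 5.88% (1 of 17) of the D-assigned TRBJ1 sequences in dataset 1, 17.9% (5 of 28) in dataset 2 and 5.71% (6 of 105) without uveitis, with intervals of 0.149 to 28.7%, 6.06 to 36.9% and 2.13 to 12%. By cells the share in dataset 2 was 50.8% (31 of 61), since 1 sequence filled 19 cells. Of the 12, 5 used TRBJ1-4 and 2 used TRBJ1-3, 5 used TRBV20 and 2 used TRBV19, and 6 were in 1 cell each. The 5 with the most cells are shown with the longest match to TRBD2 in capitals.
dataset 2, TRBV19, TRBJ1-3, 19 cells: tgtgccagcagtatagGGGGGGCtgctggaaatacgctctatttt
dataset 2, TRBV19, TRBJ1-3, 5 cells: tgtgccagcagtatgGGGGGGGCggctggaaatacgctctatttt
without uveitis, TRBV13-2, TRBJ1-6, 5 cells: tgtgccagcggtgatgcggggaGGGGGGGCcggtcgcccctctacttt
without uveitis, TRBV20, TRBJ1-4, 4 cells: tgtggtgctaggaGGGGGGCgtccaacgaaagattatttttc
dataset 2, TRBV20, TRBJ1-4, 3 cells: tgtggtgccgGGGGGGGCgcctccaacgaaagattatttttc

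In these 5 the match lay in the G-rich end of TRBD2, and none of the 12 held ACTGG, the letters around the base at which TRBD2 parts from TRBD1. In some other exceptions, each in 1 cell, the longest match did hold the T at that base. Without uveitis it was TGGGG with TRBV20 and TRBJ1-1, and TGGGGGG with TRBV2 and TRBJ1-2 and with TRBV20 and TRBJ1-4. In dataset 2 it was CTGGGG with TRBV5 and TRBJ1-5. The motif ACTGG was searched on the coding strand over the whole CDR3. It was in 127 of all 664 sequences (19.1%), in 124 of the 218 TRBJ2 sequences assigned TRBD2 and in 2 of the 138 TRBJ1 sequences assigned TRBD1. A run of 6 or more G between V and J, longer than the run of TRBD1, was in 9 of the 12 exceptions (75%), in 57.3% (125 of 218) of the TRBJ2 sequences with TRBD2 and in 5.07% (7 of 138) of the TRBJ1 sequences with TRBD1. The D gene was called from these same bases, so the contrasts of motif and G run by D gene were largely fixed in advance. They do not measure how reliable the TRBD2 calls are. The longest match of the exceptions to TRBD2 was 3 to 8 bases. It exceeded the longest match to TRBD1 by 1 base in 7, by 2 bases in 4 and by none in 1. In TRBJ2 sequences with TRBD2 the lead over TRBD1 was 3 bases or more in 66.5% (145 of 218), and its median was 4. Small leads were also common among TRBD1 calls. There the lead over TRBD2 was 3 bases or more in 44.2% (61 of 138) with TRBJ1 and 38.3% (49 of 128) with TRBJ2. Its median was 2 in both. So the D gene of the exceptions rested on a margin of at most 2 bases, and no test of recombination against the locus order was possible from these values.

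Assigning D instead by an exact match of at least 6 bases to 1 of the D genes gave TRBD1 to 103 of the 138 TRBJ1 sequences that Cell Ranger had assigned TRBD1 and to 87 of the 128 such TRBJ2 sequences, and TRBD2 to 0 and 1 of them. It gave TRBD2 to 202 of the 218 TRBJ2 sequences with TRBD2 and to 10 of the 12 exceptions. The rest held no match of this length that told the D genes apart. By this rule TRBD1 had 29.7% of the D-assigned TRBJ2 sequences without uveitis, in place of 36.9%.

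The constant gene did not follow the J cluster in the deposited annotation. All 1119 productive TRB contigs were annotated TRBC1, and TRBC2 was named in 0 of the 1703 contigs with a TRB constant gene, which allows a share of up to 0.176%. Splicing normally joins a TRBJ2 segment to TRBC2, so the annotation disagreed with the J cluster in every TRBJ2 contig: 172 of 212 (81.1%) in dataset 1, 260 of 391 (66.5%) in dataset 2 and 325 of 516 (63.0%) without uveitis. These shares are the TRBJ2 shares of the contigs and carry no measurement of TRBC2 use. The GENCODE transcripts of TRBC1 (chr6:41538218-41539881) and TRBC2 (chr6:41546730-41548352) have the same first 259 bases. Their first difference is C260A, given as the TRBC1 base, the position counted from 1 at the first base of the constant region transcript, and the TRBC2 base. Whether the contigs reach position 260 was not tested. Positions 240 to 279 are shown with the differing base in capitals.
TRBC1: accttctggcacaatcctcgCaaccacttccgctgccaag
TRBC2: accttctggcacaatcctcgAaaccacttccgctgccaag

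The 5 TRBJ2 sequences with the most cells, all annotated TRBC1, include the leading TRBJ2 clones of dataset 1 and dataset 2 given above. The other 3 are shown with the longest match to their D gene in capitals.
dataset 2, TRBV4, TRBD1, TRBJ2-7, 19 cells: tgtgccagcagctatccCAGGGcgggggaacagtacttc
dataset 2, TRBV13-1, TRBD2, TRBJ2-7, 14 cells: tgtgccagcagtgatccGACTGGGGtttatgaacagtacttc
dataset 1, TRBV15, TRBD1, TRBJ2-3, 13 cells: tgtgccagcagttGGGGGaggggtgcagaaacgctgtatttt

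CDR3 was slightly longer in TRBJ2 rearrangements in all 3 libraries. The mean length was 41.5 bases with TRBJ1 and 42.3 with TRBJ2 in dataset 1, 40.5 and 41.9 in dataset 2, and 41 and 41.4 without uveitis. The difference, TRBJ2 minus TRBJ1, was 0.884 ± 0.432 bases (SD over the libraries, n = 3; exact two-sided sign-flip permutation test, p = 0.25). With 3 libraries this test cannot go below 0.25. The spread among sequences was larger than the difference, with an SD of 3.27 to 5.17 bases, and the median was 42 bases in each cluster of each library.

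The similar total hid a shift between its parts. Each CDR3 was split into the bases matching the germline V gene, the bases matching the germline J gene and the middle between them, which holds the D bases and the untemplated ones. The middle measured 8.36 bases with TRBJ1 and 10.9 with TRBJ2 in dataset 1, 9.10 and 10.8 in dataset 2, and 8.68 and 10.1 without uveitis. It was longer with TRBJ2 by 1.88 ± 0.560 bases (n = 3, longer in 3 of 3 libraries; exact sign-flip permutation p = 0.25, the smallest possible). The germline J part was shorter with TRBJ2, at 17.8 bases in each library against 19.7, 18.7 and 19 with TRBJ1, and the V part was longer by 0.340 ± 0.177 bases.

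The D gene accompanied the longer middle. It is called from the bases between V and J, and a short middle leaves few bases for a call. Middle lengths with each D gene, or with none, are therefore not independent of the call. On the TRBJ2 cluster, sequences with TRBD2 had a middle 2.0 ± 0.421 bases longer than those with TRBD1 (2.48, 1.83 and 1.69 in the 3 libraries; exact sign-flip permutation p = 0.25). Germline TRBD2 is 2 bases longer than TRBD1, but whether germline D length accounts for the longer middle was not tested. When only sequences with TRBD1 were compared, the middle with TRBJ2 exceeded that with TRBJ1 by 0.25, 1.45 and 0.242 bases, a mean of 0.647 ± 0.694. With TRBD1 assigned by an exact match of at least 6 bases instead, the differences were 0.333, 0.907 and -0.0994 bases, with both signs (exact sign-flip permutation p = 0.5). Among sequences with no D gene the differences were 0.727, -0.947 and 0.103 bases, with both signs. The middle of sequences without a D gene averaged 5.48 bases with TRBJ1 and 5.54 with TRBJ2 over all libraries, against 10.1 and 10.7 with TRBD1.

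**Figure D4:**
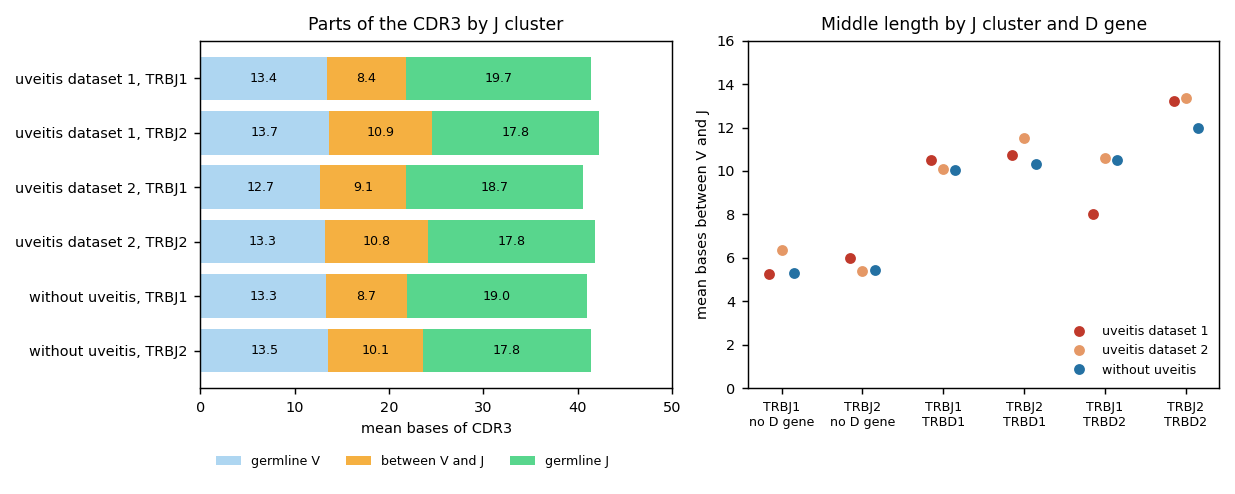
Left, mean bases of CDR3 that match germline V, lie between V and J, or match germline J, for each library and J cluster (x axis, bases; means printed in the bars). Right, mean bases between V and J by J cluster and D gene, 1 point per library; TRBJ2 with TRBD2 is highest at 12 to 13.4 bases, and the dataset 1 point of TRBJ1 with TRBD2 is 1 sequence.

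More germline J bases were missing from TRBJ2 than from TRBJ1 sequences in all 3 libraries. TRBJ1 heads had lost 2.0, 2.46 and 2.67 bases on average in dataset 1, dataset 2 and the library without uveitis, and TRBJ2 heads 3.01, 3.15 and 2.90. The difference was 0.641 ± 0.394 bases (n = 3, larger in 3 of 3 libraries; exact sign-flip permutation p = 0.25). It ran from 1.01 bases in dataset 1 to 0.226 without uveitis. J heads without any loss made up 32.1%, 30.8% and 30.2% of TRBJ1 sequences and 23.6%, 25% and 27.4% of TRBJ2 sequences. Trimming of the V end went both ways, with differences of -0.169, -0.655 and 0.206 bases (exact sign-flip permutation p = 0.75).

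Mean trimming differed from gene to gene inside both clusters. Over all libraries TRBJ2-3 had lost 1.42 bases on average, TRBJ1-3 1.46, TRBJ2-2 1.71 and TRBJ1-2 1.71. TRBJ1-5 had lost 4.21, TRBJ2-1 3.83, TRBJ2-7 3.62 and TRBJ1-6 3.53. TRBJ2-3 kept its whole head in 53.5% (23 of 43) of sequences and TRBJ1-3 in 45.9% (17 of 37). TRBJ2-1 did so in 9.64% (8 of 83) and TRBJ1-5 in 5.26% (1 of 19). In the TRBJ2 cluster, TRBJ2-3 lost 0.778, 1.78 and 1.52 bases and TRBJ2-1 lost 3.22, 4.36 and 3.81 in the 3 libraries. In the TRBJ1 cluster, TRBJ1-3 lost 1.29, 1.13 and 1.64 bases and TRBJ1-5 lost 4.0, 4.67 and 4.15. The TRBJ1-5 means rest on 3, 3 and 13 sequences. These genes were picked for their low or high means in the same libraries, and the gaps between them were not tested.

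Genes with a long head did not have correspondingly long CDR3 sequences in every case. TRBJ2-7, with the shortest head, had the longest middle, 11.3 ± 4.28 bases (SD over 130 sequences), and a CDR3 of 40.5 bases. TRBJ1-1 had a head of 20 bases, a middle of 8.63 and the shortest CDR3, 38.7 bases. TRBJ1-6, with the longest head, had the shortest middle, 7.94 bases, and a CDR3 of 42.9 bases, and TRBJ2-3 had the longest CDR3, 43.3 bases. Without TRBJ2-7 the middle was still longer with TRBJ2, by 1.45 ± 0.389 bases. Across the J genes of a library, Pearson's r between head length and mean middle length was -0.466 in dataset 1 (12 genes), 0.045 in dataset 2 (11 genes) and -0.488 without uveitis (12 genes), a description of genes that share a library, with as few as 3 sequences a gene in the uveitis libraries. The r between head length and mean CDR3 length was 0.420, 0.416 and 0.735.

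**Figure D5:**
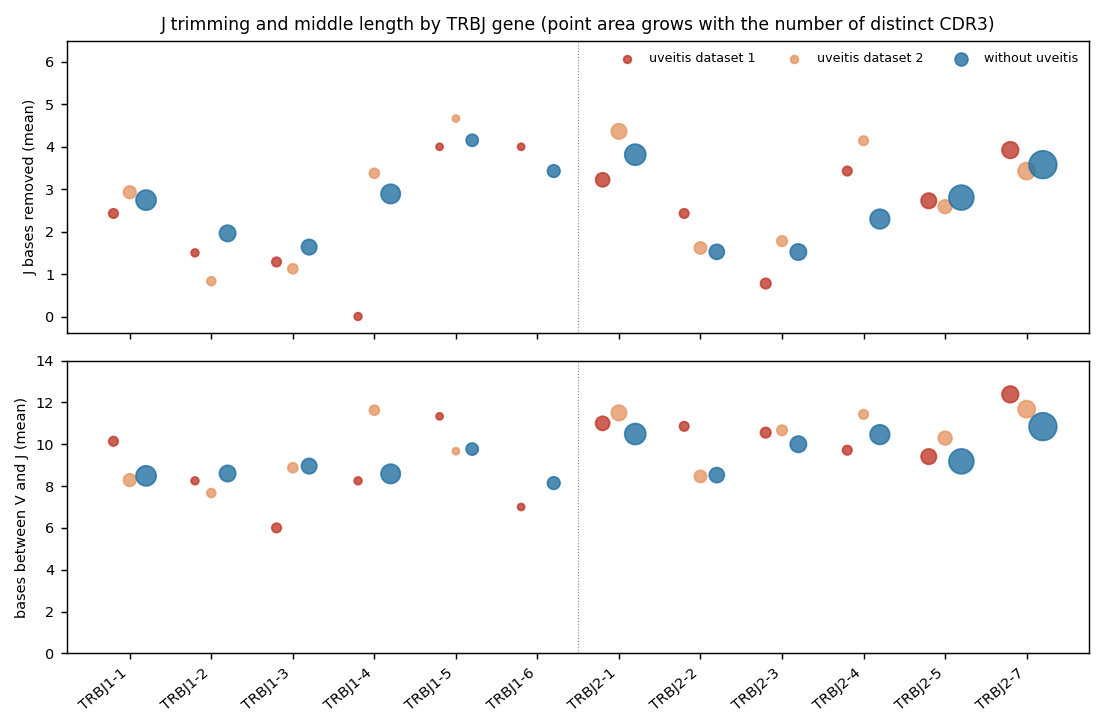
Mean germline J bases removed (upper panel) and mean bases between V and J (lower panel) for each TRBJ gene, 1 point per library, with the point area growing with the number of distinct CDR3 sequences; TRBJ1-6 has no point for dataset 2. TRBJ1-2, TRBJ1-3 and TRBJ2-3 lie low in the upper panel, at 0.778 to 1.96 bases, and the single TRBJ1-4 point at 0 comes from 4 sequences of dataset 1.

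The difference in TRB UMIs per cell between the clusters had both signs. The median was 8.5 UMIs for TRBJ1 cells and 12 for TRBJ2 cells in dataset 1, 11 and 10 in dataset 2, and 14 and 16 without uveitis. The difference of the medians was 3.5, -1 and 2 UMIs, a mean of 1.5 ± 2.29 (n = 3; exact sign-flip permutation p = 0.5). The spread within a cluster was wide, with quartiles of 10 and 27 UMIs for the TRBJ2 cells without uveitis. With 3 libraries this test cannot go below 0.25, so it could not detect a difference of any size.

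Cells with more than 1 productive TRB contig numbered 11, 32 and 19. In dataset 1, 3 of them paired a TRBJ1 with a TRBJ2 contig and 8 held TRBJ2 contigs only. In dataset 2, 30 of the 32 held TRBJ2 contigs only, and 27 of these carried the same pair of chains. That pair was the TRBV12-2 and TRBJ2-3 chain shown above, with a median of 13 UMIs, and a TRBV4 and TRBJ2-2 chain with a median of 6. In the library without uveitis 11 paired TRBJ1 with TRBJ2, 7 held TRBJ2 contigs only and 1 held TRBJ1 contigs only. Droplets that caught more than 1 cell were not removed, and their part in these counts was not tested.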

How the data were processed

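Receptor transcripts of single cells were sequenced on the 10x Genomics platform (5′ kit), and 3 of the 6 samples, the TCR libraries, were analysed. The 3 mRNA samples of the same cells were not used here. The authors assembled and annotated the contigs with Cell Ranger version 3 against a GRCm38 VDJ reference. The deposited read and UMI counts of each contig are whole numbers without normalization, and V, D, J and C genes and CDR3 were used as deposited. Droplets with more than 1 cell were not removed.

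For each cell the productive TRB contig with the most UMIs was used, and identical CDR3 nucleotide sequences within a library were counted once. A clonotype was a combination of TRA and TRB with the same V and J genes and the same CDR3 bases in both. The J part of CDR3 was the longest suffix identical to the germline J head, the V part was the longest prefix identical to the last 35 germline V bases, and the rest was the middle; an added base equal to a germline base counts as germline. Germline sequences and positions came from GENCODE M21, which held all 21 TRBV and 12 TRBJ gene names used and may differ from the reference of the authors. Intervals were computed with scipy 1.17.1, tables with pandas 2.3.3 and numpy 2.4.6 in Python 3.11.15, and plots with matplotlib 3.10.9. The CDR3 splitting was run on simulated sequences with TRBV13-2 as the only V gene. The mean error in J trimming that this run allowed was near the reported difference between the J clusters. No error was computed by J cluster, so the run does not check that difference.

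Shares carry Clopper-Pearson 95% intervals, and beside a count of 0 stands the share of 3 counts. Differences between the J clusters were taken within each library and tested over the 3 libraries with an exact two-sided sign-flip permutation test. Each library is a pool of mice, so 2 libraries with uveitis and 1 without allow no test between conditions. The sequences printed are the germline D and J genes, the most frequent CDR3 of each J cluster per library, and up to 5 exceptions each of TRBD2 with TRBJ1 and of TRBC against the J cluster. Other single sequences and the split of the middle by D gene were chosen after their values were seen. The genes and lists were chosen with earlier results of these data known.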

Additional observations from a re-analysis of the deposited data

Results flagged for a closer look

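TRB contigs with a J gene and no V gene fall outside the productive contigs counted above. There were 385, in as many cells, 95 in dataset 1, 6 in dataset 2 and 284 without uveitis, and none had a D gene. TRBJ2 genes made up 88.8% (342 of 385) of them, with an exact 95% interval of 85.3 to 91.8%, with 88.4% in dataset 1, 83.3% in dataset 2 and 89.1% without uveitis. TRBJ2-7 was the most frequent in dataset 1 (32 contigs) and TRBJ2-1 without uveitis (114 contigs). Of the 375 in a cell with a productive TRB contig, 56 had the same J gene as that contig (14.9%). A TRBJ2 gene was in 158 of the 166 beside a TRBJ1 rearrangement and in 175 of the 209 beside a TRBJ2 rearrangement. These contigs had a median of 8 UMIs and a median length of 452 bases.

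TRB contigs with both a V and a J gene that were not productive numbered 75 and were also outside the counts above. Of these, 65.3% (49 of 75) used a TRBJ2 gene, with an interval of 53.5 to 76.0%, and the libraries gave 12 of 20 in dataset 1, 5 of 10 in dataset 2 and 32 of 45 without uveitis. This interval overlapped that of the productive distinct sequences in each library.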

How the results depend on the processing

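Of 148 values recomputed for 20 results under other settings, 141 counted as kept and 7 shares moved outside the interval of the reported share. A share was kept within that interval, and a difference if its direction stayed. The combined uveitis share with either library left out was judged instead by the SD of those 2 libraries. That rule made a kept value nearly certain. By an exact match of at least 6 bases in place of the Cell Ranger D gene, the share with no D gene was 40.2%, 35.6% and 39.1% in dataset 1, dataset 2 and the library without uveitis, in place of 27.4%, 25.9% and 24.5%. The same rule gave TRBD1 29.7% of D-assigned TRBJ2 sequences without uveitis, and TRBD2 0% of D-assigned TRBJ1 sequences in dataset 1, in place of 1 of 17 sequences. Counted by cells, TRBD2 had 50.8% of D-assigned TRBJ1 cells in dataset 2. Among cells with exactly 1 productive TRB contig, TRBC1 disagreed with the J cluster in 60.6% of contigs of dataset 2. The combined TRBJ2 share of the uveitis libraries was 73.4%, and 71.1 to 76.1% with either left out. With each library left out in turn, settings added after the data were seen, the difference TRBJ2 minus TRBJ1 was 0.658 to 1.09 bases for CDR3, 1.57 to 2.12 for the middle, 0.455 to 0.848 for J bases removed and 0.5 to 2.75 for UMIs. For CDR3, the middle and J bases removed, all 3 libraries had the same sign, so the direction of these values was fixed in advance. Of the differences, none can pass a threshold of 0.05 with 3 libraries, so a kept direction is all that these settings show. No paired analysis was possible because the uveitis and no-uveitis TCR groups share fewer than 2 replicate numbers and were not tested against each other; the J clusters were compared within each library. Depth limits the rare genes most: TRBJ1-5 and TRBJ1-6 rest on 3 or fewer sequences in each uveitis library.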
